A study of Mus musculus with 4 samples.

Results

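White matter tract spots were examined in Visium-FFPE sections of the mouse brain, an assay that counts gene-specific probe pairs, hybridised to the RNA of fixed tissue, in barcoded spots that each cover several cells. In each of 4 sections the members were chosen by their counts of 7 myelin genes (Mag, Mal, Mog, Cldn11, Ugt8a, Gsn and Fa2h): the score of a spot was the mean over these genes of ln(1 + UMIs per 10000 UMIs of the spot), and the 200 spots with the highest score were taken. This gave 800 members of 13452 kept spots, or 5.56% to 6.26% of the kept spots of a section. The sections came from wild-type male C57BL/6J offspring at postnatal day 21. Their mothers, 8 weeks old per the labels, had eaten 2 mg/kg folic acid (FA; the MF group, 2 sections) or 20 mg/kg FA (the HF group, 2 sections) from 2 weeks before mating, with the same diet through pregnancy and lactation, so both groups received FA and neither is a folate-free control. The labels do not say whether the 2 sections of a diet came from separate litters, and the p-values below measure the spread between these sections only.

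Myelin is the layered membrane that oligodendrocytes wrap around axons. Its sheets are held together by a small set of abundant proteins, and its lipids, cholesterol and galactosphingolipids among them, are made largely within the oligodendrocyte. In the mouse forebrain the wrapping of the large tracts, such as the corpus callosum and the internal capsule, runs through the weeks after birth, so tracts at weaning hold mature oligodendrocytes beside precursors and newly formed cells.

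All 7 score genes serve the myelin sheath or the oligodendrocyte. Mag is an adhesion protein of the inner myelin surface that faces the axon, Mog a glycoprotein of the outer surface, Mal a proteolipid of membrane traffic and Cldn11 the claudin of the tight junctions between myelin layers. Ugt8a makes galactosylceramide, Fa2h hydroxylates the fatty acids of myelin sphingolipids, and Gsn severs actin filaments. In GRCm38 they lie on chromosome 7 (Mag, 30899176 to 30914873), 2 (Mal, 127633226 to 127656695, and Gsn, 35256380 to 35307892), 17 (Mog, 37010743 to 37023398), 3 (Cldn11, 31149920 to 31164324, and Ugt8a, 125865271 to 125938619) and 8 (Fa2h, 111345135 to 111393824). The lowest member scored 2.78 and 2.87 in the MF sections (replicates 1 and 2, the order used throughout) and 2.67 and 2.76 in the HF sections. The highest spot outside scored 2.78 and 2.87 in MF and 2.66 and 2.75 in HF, so the members are the top of a continuous range rather than a separate cluster. The highest scores were between 3.52 and 3.80, and the medians of the other spots between 1.19 and 1.46.

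The summed members held 5341675 and 2407484 UMIs in MF and 1432347 and 2812051 UMIs in HF. A member of HF replicate 1 had a median of 6734 UMIs, below the 9569 of the other spots of that section. In MF replicate 1 and HF replicate 2 the members were deeper than the other spots (medians of 25826 against 23326 and of 13756 against 11704), and in MF replicate 2 both medians were close (12058 and 12079). The level of a gene in a spot reflects both the number of cells of a type and the RNA per cell, and these cannot be told apart.

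Most members lay together on the array. Of 6 neighbouring positions a member had on average between 3.23 and 3.71 that were members too, and between 15 and 19 members of a section had none. The largest connected patch held between 108 and 141 members. Each member was also assigned to the brain area whose landmark genes were highest in the non-member spots within 3 steps of it. Striatum landmarks were highest around 92 and 79 members of the MF sections and around 104 and 102 of the HF sections. Hypothalamus landmarks were highest around 64 and 49 members of the MF sections and around 39 and 31 of the HF sections. The MF and HF sections thus did not overlap in either count. Both counts are shares of the same members of a section, so they are not independent. Hippocampus landmarks were highest around 15 to 35 members, thalamus landmarks around 16 to 42 and cortex landmarks around 4 to 16. In each of these other counts the diets overlapped. With 2 sections per diet the counts cannot show whether the stretch of tract sampled differed between the diets, and this was not tested.

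**Figure D1:**
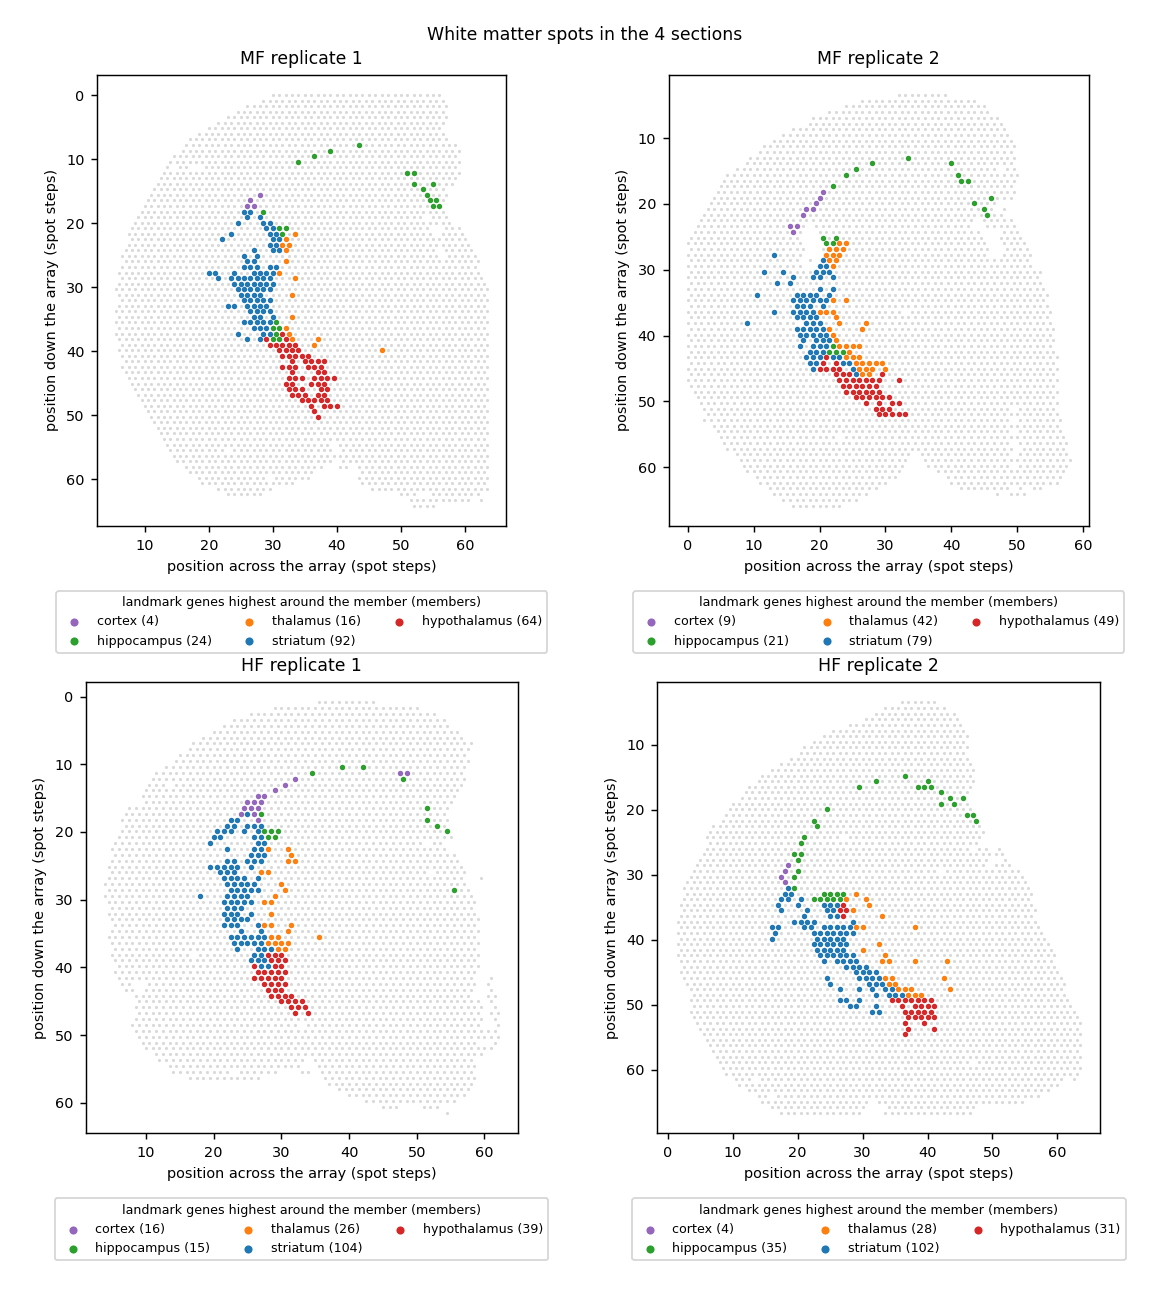
Position of the 200 members (coloured by the landmark genes that were highest in the non-member spots around them, with the number of members of each colour) and of all other kept spots (grey) in the 4 sections; both axes are positions on the array in spot steps. In every section most members lie along 1 arc, a thin line at the top and a broad band that runs downwards from striatum surroundings to hypothalamus surroundings.

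The members carried the transcripts of myelin far beyond the genes that chose them. All values in this and the next 5 paragraphs are ratios of CPM, the UMIs per gene after every sum was brought to 1 common total, of the summed member spots over the summed other spots of a section, with 1 CPM added, and since the members were chosen on counts of the same spots they are a description without a test. Over the 8413 features of at least 20 CPM the median log2 ratio was -0.17 ± 0.02 (SD, n = 4 sections), with 1951 of them higher and 4434 lower in all 4 sections, and values and counts below are read against that. The median of the 7 score genes was 2.41 ± 0.15. The median of 22 other myelin proteins, which the score did not use, was 1.97 ± 0.09, and all 22 were higher in the members of all 4 sections. Together the score genes and these 22 took 11.3% ± 1.10 of the UMIs of the members and 2.39% ± 0.23 of those of the other spots.

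Mbp, which compacts the cytoplasmic faces of the sheath, had 31295 and 38132 CPM in the members of the MF sections and 35244 and 30078 CPM in those of the HF sections. In the other spots Mbp had 7491 and 7926 CPM in MF and 6736 and 6501 CPM in HF, and no section's members came near its other spots (log2 ratio 2.23 ± 0.13). Mobp, a small basic protein of compact myelin, and Cnp, an enzyme of its cytoplasmic channels, had log2 ratios of 2.27 ± 0.14 and 2.22 ± 0.13. Omg, a surface glycoprotein that neurons make as well, was a weaker marker with 358, 340, 347 and 341 CPM in the members and 209 to 234 CPM in the other spots (log2 ratio 0.66 ± 0.05).

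Among all features of at least 20 CPM, the 15 with the highest ratio included the 7 score genes, Ermn (a cytoskeletal protein of myelin sheaths), Gjb1, a connexin of oligodendrocyte gap junctions, the neuregulin receptor Erbb3, the magnesium transporter relative Nipal4, and Cyp2j12 and Sec14l5. Gjb1 had 190 and 201 CPM in the MF and 175 and 186 CPM in the HF members, and between 32.3 and 41.9 CPM in the other spots. Cyp2j12, a cytochrome P450, had 35.5 ± 6.09 against 6.07 ± 1.33 CPM, Sec14l5 had 101 ± 10.3 against 19.4 ± 2.10, and Erbb3 had 120 ± 22.1 against 23.5 ± 1.43. Cyp2j12, Sec14l5, Erbb3 and Nipal4 were in no list used here. Of 12 genes for gap junctions and transport in oligodendrocytes, 11 were higher in all 4 sections (median 2.05 ± 0.11). The potassium channel gene Kcnj10, which astrocytes share, had the smallest ratio of these 11 at 0.35 ± 0.21, and Slc5a11 had between 1.11 and 3.56 CPM throughout.

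Enzymes for the lipids of myelin were higher as well, by less than the proteins. Of 14 genes of sphingolipid and fatty acid synthesis, 11 were higher in all 4 sections (median 0.98 ± 0.08). Gal3st1, which makes sulfatide, had a log2 ratio of 2.10 ± 0.12, the ceramide synthase Cers2 1.91 ± 0.15 and the elongases Elovl1 and Elovl7 2.10 ± 0.10 and 2.15 ± 0.14. All 20 cholesterol synthesis genes were higher in all 4 sections (median 1.01 ± 0.12). Hmgcs1, at the entry of the pathway, reached 1.69 ± 0.16, while the kinases Mvk and Pmvk of its middle steps reached 0.94 ± 0.10 and 0.40 ± 0.08. All 10 genes of the transcription factor list of the lineage were higher in all 4 sections (median 1.80 ± 0.06). The list also holds Tmem98, a membrane protein. Sox10 had 253 ± 50.4 against 67.8 ± 14.9 CPM, and Sox8, Olig1 and Olig2 had log2 ratios between 1.71 and 1.73. Of 15 markers of precursors and newly formed oligodendrocytes, 14 were higher and Cspg5 lower in all 4 sections (median 0.81 ± 0.15). The precursor markers Pdgfra and Cspg4 had small ratios (0.52 ± 0.07 and 0.45 ± 0.07) and C1ql1 one of 0.81 ± 0.15. Gpr17, a receptor of cells committed to differentiate, had 275 ± 39.9 against 96.2 ± 13.4 CPM, and Enpp6, a choline phosphodiesterase of newly formed oligodendrocytes picked after its values were seen, had 2.23 ± 0.10.

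Markers of other cells in the members fell into different patterns. Of 16 microglia markers, 14 were higher in all 4 sections, by a small amount (median 0.39 ± 0.15): the receptors Cx3cr1, P2ry12 and Csf1r and the membrane protein Tmem119 had log2 ratios of 0.40 ± 0.25, 0.44 ± 0.17, 0.37 ± 0.11 and 0.44 ± 0.19. The 16 astrocyte markers had a median of -0.03 ± 0.11, with 3 higher and 6 lower in all sections. The intermediate filament Gfap had 437, 578, 399 and 341 CPM in the members against 160, 178, 132 and 117 CPM in the other spots (1.56 ± 0.11). The water channel Aqp4 had 0.93 ± 0.16 and Vim 0.25 ± 0.21, and Aldh1l1 had 0.03 ± 0.16. The 6 lower ones included the glutamate transporters Slc1a2 and Slc1a3, the latter at 329 ± 30.0 against 386 ± 29.5 CPM. The 11 vessel markers had a median of 0.04 ± 0.10, and only Slc2a1 and Pecam1 were higher in all 4 sections. Cldn5, of endothelial tight junctions, had a ratio of 0.13 ± 0.20, the receptor Flt1 -0.07 ± 0.31 and Pdgfrb, of pericytes, -0.06 ± 0.33.

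Transcripts of neurons were lower in the members but were not absent. None of the 18 genes of neuron somata and synapses was higher in all 4 sections and 15 were lower in all of them (median -0.82 ± 0.10). Slc17a7, the vesicular glutamate transporter of cortex and hippocampus, had 1016 ± 83.9 CPM in the members and 1842 ± 94.9 in the other spots. Slc17a6, its counterpart in thalamus and hypothalamus, had 57.3 ± 6.06 against 185 ± 31.1 CPM. Gad1 and Gad2, which make GABA, had ratios of -0.02 ± 0.21 and -0.18 ± 0.16. Of 12 genes of the axon cytoskeleton, 10 were lower in all sections (median -0.74 ± 0.14), with the neurofilament genes Nefl, Nefm, Nefh and Ina between -0.70 and -0.87. Of 11 genes of nodes and paranodes, 8 were lower in all sections and 2 higher (median -0.64 ± 0.06). The 2 were Ank3, whose ankyrin-G anchors nodal sodium channels (1186 ± 70.4 against 770 ± 29.4 CPM), and Kcna1, a potassium channel beside the paranode (154 ± 8.16 against 108 ± 13.4 CPM). Kcna2, Scn1a and Scn8a, further channels of these domains, had log2 ratios of -0.57 ± 0.10, -0.89 ± 0.18 and -0.62 ± 0.05.

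The 8 features with the lowest ratio were Lhx9, Calb2, Dlk1, Slc17a6, Syt9, Hcrt, Grid2ip and Ntng1, with means between -2.05 and -1.54. Lhx9, a LIM homeobox transcription factor, had 8.39 ± 3.48 CPM in the members against 35.9 ± 6.29 CPM in the other spots, and the calcium-binding protein Calb2 had 90.2 ± 16.0 against 307 ± 38.7. Landmark lists of grey matter were lower in the members: the medians were -1.11 ± 0.15 for hippocampus, -1.04 ± 0.18 for thalamus, -1.04 ± 0.29 for hypothalamus and -0.71 ± 0.29 for cortex. The striatum landmarks had a median of 0.08 ± 0.38. Lists of ventricles, brain surfaces and the deepest cortical layer varied between sections, with medians of -0.02 ± 0.39 for choroid plexus, -0.04 ± 0.47 for ependyma, 0.04 ± 0.37 for layer 6b and -0.50 ± 0.22 for meninges. Foxj1, a factor of ciliated ependymal cells picked after its values were seen, was the 1 ependyma gene of 7 that was higher in all 4 sections (1.13). The median was -0.52 ± 0.14 for immediate early genes, -0.47 ± 0.06 for clock genes, -0.01 ± 0.05 for folate and one-carbon genes and 0.13 ± 0.15 for the 3 metallothioneins.

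**Figure D2:**
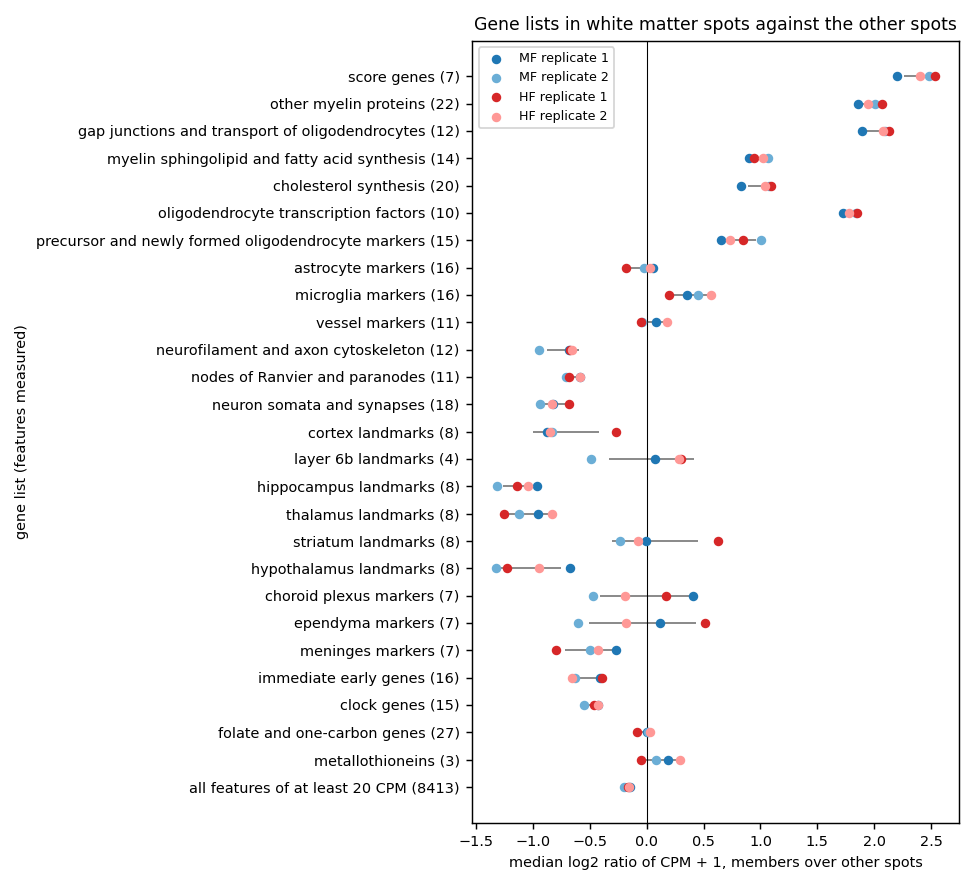
Median log2 ratio of CPM + 1 in the member spots over the other spots for each gene list (x axis), 1 point per section; grey lines show the mean ± SD over 4 sections and numbers in parentheses the features measured. The oligodendrocyte and myelin lists lie between 0.81 and 2.41 on average, and the neuron, axon and most grey matter lists lie below 0.

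With distance from the members the myelin transcripts declined step by step. Spots were grouped by their steps on the array from the nearest member, and each group was set against the spots 4 or more steps away. The median log2 ratio of the 22 other myelin proteins was 2.19 ± 0.09 in the members, 1.22 ± 0.18 at 1 step, 0.57 ± 0.24 at 2 steps and 0.27 ± 0.13 at 3 steps. Mbp had 33687 ± 3693 CPM in the members, 17172 ± 1870 at 1 step, 9976 ± 1393 at 2, 7494 ± 924 at 3 and 5677 ± 804 beyond. Genes of neuron somata and synapses went the other way, from -0.82 ± 0.12 in the members and -0.30 ± 0.09 at 1 step to 0.07 ± 0.06 at 2 and 0.15 ± 0.07 at 3 steps. Markers of precursors and newly formed cells declined from 0.84 ± 0.15 to 0.49 ± 0.05, 0.05 ± 0.10 and -0.07 ± 0.04. Microglia markers declined from 0.39 ± 0.16 to -0.16 ± 0.03 over the same steps.

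Other transcripts had their highest mean in the spots next to the members. Ccn2, a matricellular protein of cortical layer 6b, had 41.0 ± 15.5 CPM in the members, 83.9 ± 16.3 at 1 step and 51.7 ± 14.3 at 2 steps. Ttr, the transthyretin of choroid plexus, had 3010 ± 798 CPM in the members and 10849 ± 4557 at 1 step. The choroid plexus list had a median of 0.61 ± 0.53 in the members, 2.06 ± 0.53 at 1 step, 1.14 ± 0.86 at 2 and 1.44 ± 0.75 at 3 steps, and in MF replicate 2 it was higher at 2 steps (2.26) than at 1 (1.82). Vim, of ependymal cells and immature glia, had 49.7 ± 7.77 CPM in the members, 66.7 ± 2.61 at 1 step and 34.8 ± 9.66 at 2 steps.

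**Figure D3:**
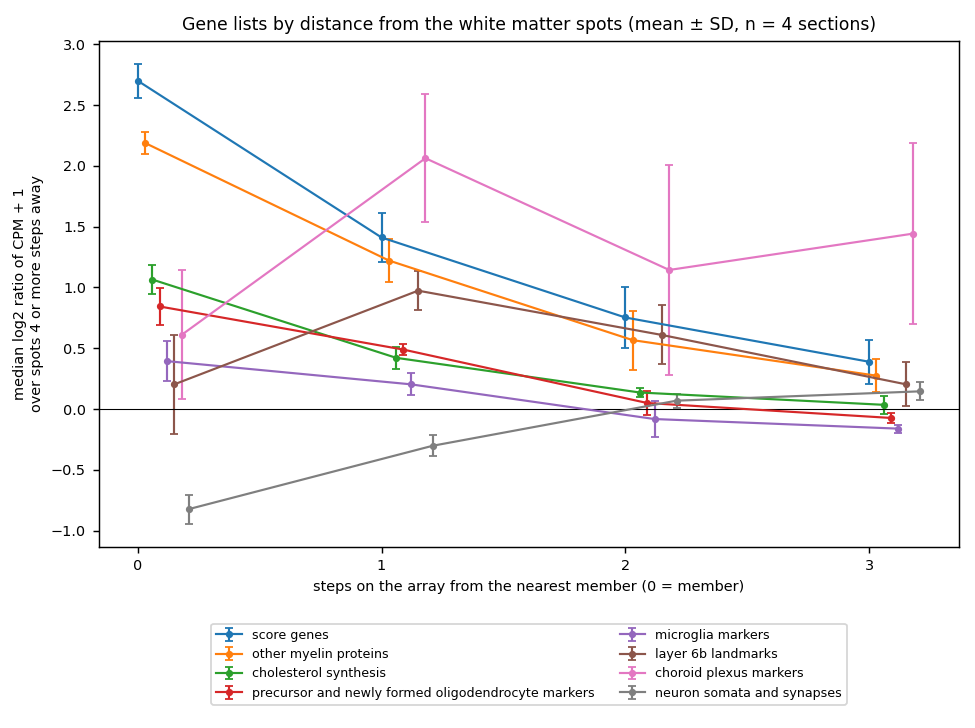
Median log2 ratio of CPM + 1 over the spots 4 or more steps away (y axis) for 8 gene lists, by steps on the array from the nearest member (x axis); points are means and bars the SD over 4 sections. The myelin lists decline with each step, the neuron list rises to just above 0 at 2 steps, and the means of the choroid plexus and layer 6b lists are highest at 1 step.

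The 50 highest-scoring members of a section were set against the 50 lowest-scoring ones, again as a description. The score genes differed by a median of 0.80 ± 0.10 on the log2 scale and the other myelin proteins by 0.60 ± 0.09, while genes of neuron somata and synapses differed by -0.60 ± 0.12 and landmarks of thalamus by -1.09 ± 0.31, of striatum by -0.34 ± 0.18 and of hypothalamus by -0.14 ± 0.02. Astrocyte markers were lower in the high-scoring members (-0.40 ± 0.15), although Gfap was higher in all 4 sections (0.30 ± 0.12). The list of oligodendrocyte transcription factors differed by 0.53 ± 0.11. Precursor and newly formed cell markers went both ways, from -0.16 in HF replicate 2 to 0.55 in HF replicate 1, so their level did not follow the myelin score in the same way in all sections.

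Members with striatum surroundings and members with hypothalamus surroundings were each set against all members of the section. The 22 other myelin proteins had a median log2 ratio of 0.08 ± 0.02 in the former and -0.04 ± 0.06 in the latter. Every member had passed the same cut on the myelin score, and both kinds are part of all members. Small differences in myelin genes are thus in part built in. Striatum landmarks had 0.54 ± 0.08 and -0.98 ± 0.20, and hypothalamus landmarks -0.42 ± 0.19 and 0.85 ± 0.24. The same landmark lists, read in the spots around the members, had assigned the surroundings, so this contrast is largely built in. Choroid plexus markers had 0.38 ± 0.40 and -1.41 ± 0.77. Immediate early genes had 0.04 ± 0.05 in members with striatum surroundings and -0.29 ± 0.13 in those with hypothalamus surroundings, and astrocyte markers -0.09 ± 0.03 and 0.18 ± 0.15, in the same order in all 4 sections.

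Several myelin genes were also among the most spatially structured features in Moran's I, which Space Ranger gave as a score of how alike neighbouring spots are for each feature over the whole section. Mbp had values of 0.771, 0.754, 0.741 and 0.769 (MF replicates 1 and 2, then HF replicates 1 and 2) and ranked 5, 3, 3 and 2 among all features. Mobp ranked between 4 and 9. Of the score genes, Mag ranked between 29 and 47 and Mal between 16 and 48. Others were far lower: among the 22 other myelin proteins Cd9, Cd82, Ndrg1, Hapln2, Anln, Jam3, Tppp and Cntn2, picked after their values were seen, ranked from 600 to 1680, and Omg, with a value between 0.064 and 0.112, ranked from 2243 to 2654.

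The comparison of HF with MF asked whether the maternal diet went with a change in the transcripts of the tracts. For each section the counts of its 200 members were summed, and the 4 sums were compared with the quasi-likelihood test of edgeR, with calls made where the p-value after Benjamini-Hochberg adjustment was under 0.05 and the change 1.2-fold or more. The score genes are given as values only, since the members were chosen on them and the same number was taken in every section. Mag had 3938 and 4720 CPM in the MF members and 4276 and 3914 CPM in the HF members, and the diets overlapped. Mal had 5097 and 5944 against 4600 and 4913 CPM, with both HF sections below both MF sections. Fa2h had 919 and 1264 against 1016 and 1077 CPM. All 7 log2 fold changes were below 0, between -0.26 (Ugt8a) and -0.09 (Fa2h), with a median of -0.20. Mog, Cldn11 and Gsn had -0.10, -0.20 and -0.22. Without MF replicate 1 the median was -0.32 and without MF replicate 2 it was -0.04. Without MF replicate 2 the values of Fa2h, Mag and Mog turned to 0.18, 0.05 and 0.01, so the size and, for these 3, the direction rest on which MF section is used.

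The other myelin proteins showed no called difference between the diets. They follow the score that set the same number of members in every section. Their levels are thus in part built in, and the fit cannot show whether the diet changed them. Mbp had 31295 and 38132 CPM in the MF members and 35244 and 30078 CPM in the HF members, and the diets overlapped (log2 fold change -0.12 ± 0.20 SE). Mobp and Cnp, with log2 fold changes of -0.11 and -0.12, overlapped as well, and so did Omg at -0.05. Of the 22 proteins, 20 had a log2 fold change below 0 and 2 above (median -0.14), beside a median of -0.00 over all 11971 genes tested, and none was called. In 10 of the 22 both HF sections lay below both MF sections, and in none both above. Over all genes tested 15% had both HF sections below and 21.4% both above. The median was -0.28 without MF replicate 1 and -0.06 without MF replicate 2. Cntn2, an adhesion protein of the juxtaparanode picked after its values were seen, had the largest decrease of the 22 in size at -0.40 ± 0.14, and it was not called either.

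Across the rest of the oligodendrocyte lists no gene was called. These lists were higher in the members as well, so the same limit holds. Of 11 gap junction and transport genes tested, 9 had a log2 fold change below 0 (median -0.16), with Gjb1, Gjc3 and Kcnj10 between -0.19 and -0.01. Of 14 sphingolipid and fatty acid genes 12 were below 0 (median -0.14), with Gal3st1 at -0.25, Cers2 at 0.01, Elovl1 at -0.22 and Elovl7 at -0.14. Of 20 cholesterol genes 14 were below 0 (median -0.06, but 0.07 without MF replicate 2 and -0.20 without MF replicate 1), with Hmgcs1, Mvk and Pmvk between -0.08 and 0.13. Of the 10 genes of the transcription factor list 7 were below 0 (median -0.07), and single genes went both ways. Sox10 had 266 and 309 CPM in the MF and 251 and 187 CPM in the HF members (-0.43 ± 0.15), and Sox8 had 320 and 374 against 246 and 267 CPM (-0.46 ± 0.14). Olig2 had 38.4 and 36.6 against 44.0 and 53.3 CPM (0.37 ± 0.17) and Olig1 had 0.07 ± 0.14. Among the 10, both HF sections lay above both MF sections in 3 and below in 2, beside 21.4% and 15% over all genes tested, and none was called. Precursor and newly formed cell markers were below 0 in 9 of 15 (median -0.02), with Pdgfra at -0.17, Cspg4 at -0.02, C1ql1 at 0.04 and Gpr17 at 0.11.

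**Figure D4:**
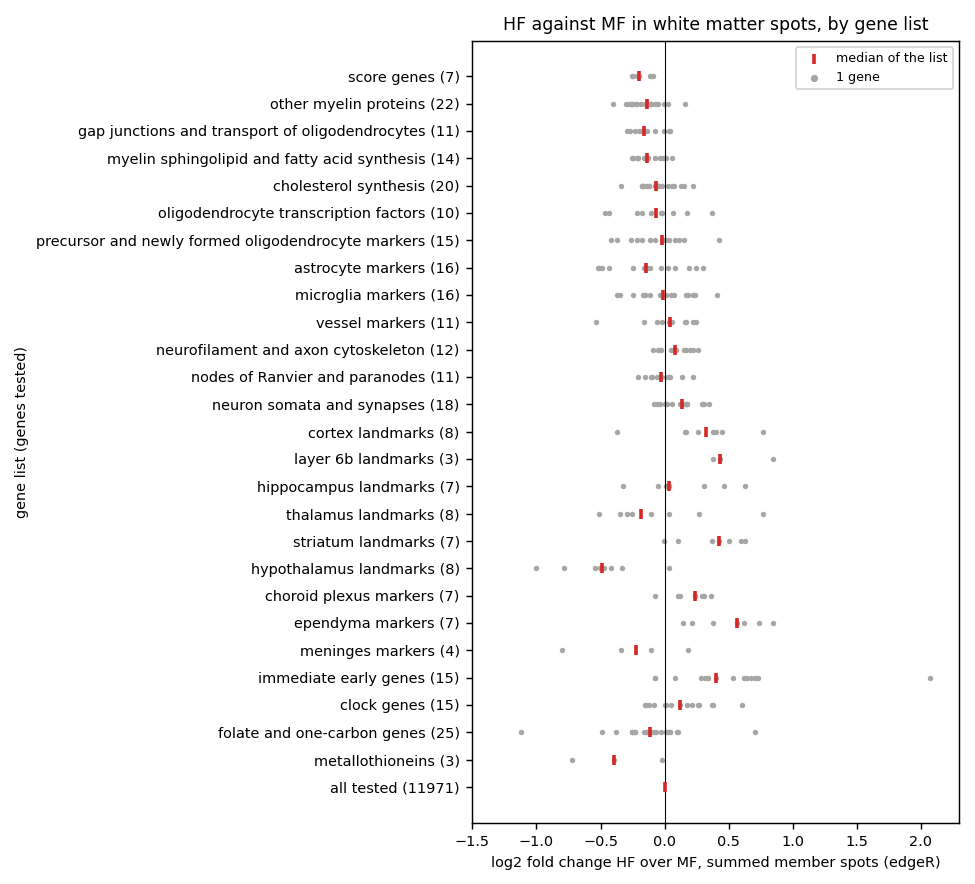
Log2 fold change of HF over MF in the summed member spots (x axis, edgeR) for the genes of each list (grey points) and the median of the list (red bars), with the number of genes tested in parentheses; the genes called across all features, apart from Egr1 in the immediate early genes at 2.07, are in none of these lists. The medians of the myelin and oligodendrocyte lists lie between -0.20 and -0.02.

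Over all 11971 genes tested, 4 were called, or 0.0334%: Egr1 and Avp rose in HF (0.0167% of the genes) and Pmch and Hcrt fell (0.0167%). At an unadjusted p-value under 0.05 there were 731 genes. Leaving out 1 section leaves its diet with a single section and no spread within that diet. Such fits are therefore read for effect sizes only, and their calls are not given. DESeq2 called 1 gene, Mt2, and none of the 4. With 2 sections per diet the smallest two-sided p-value of an exact permutation test of a single gene is 0.333, so each call borrows the spread estimated across genes.

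Egr1, an immediate early transcription factor that neurons switch on with activity, had 31.1 and 39.5 CPM in the MF members and 97.0 and 186 CPM in the HF members. Every HF section was above every MF section (log2 fold change 2.07 ± 0.22 SE, 4.19-fold, adjusted p-value 7.93e-05). Outside the members Egr1 was also higher in HF: the other spots had 50.2 and 59.1 CPM in MF and 159 and 350 CPM in HF, and the difference of the diet effects between members and other spots was -0.22 ± 0.13 (adjusted p-value 1). Within members of striatum surroundings Egr1 had 36.3 and 37.5 against 109 and 198 CPM. Within those of hypothalamus surroundings it had 21.0 and 49.3 against 46.0 and 115 CPM, where the diets overlapped. In DESeq2 its log2 fold change was 1.98 with an adjusted p-value of 0.448.

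The other 3 called genes encode neuropeptides of the hypothalamus, and their CPM in the members differed between sections of the same diet as well. Pmch, the precursor of melanin-concentrating hormone (chromosome 10, 88091072 to 88092375), had 559 and 165 CPM in the MF members and 56.6 and 0.711 CPM in the HF members, the last from 2 UMIs (log2 fold change -4.09 ± 0.62, adjusted p-value 0.00669). The size of the Pmch difference rests on the HF section used (-8.97 without HF replicate 1 and -2.73 without HF replicate 2), and with 300 members per section it was not called (adjusted p-value 0.424). Hcrt, the orexin precursor (chromosome 11, 100761069 to 100762931), had 45.3 and 11.6 against 6.98 and 0.356 CPM, the last from 1 UMI (-3.59 ± 0.63, adjusted p-value 0.0406). MF replicate 2 and HF replicate 1 lay close together in Hcrt, and without MF replicate 1 its log2 fold change was -2.13. Hcrt was not called with library size alone, 300 members, thinned spots, 1 score threshold or at least 3 member neighbours. Its log2 fold change ranged from -6.40 without HF replicate 1 to -1.80 in thinned spots. Within members of striatum or of hypothalamus surroundings Hcrt gave no value, as its counts did not pass the filter. Avp, the vasopressin precursor (chromosome 2, 130580620 to 130582554), had 2.81 and 3.74 against 9.08 and 122 CPM (4.54 ± 0.65, adjusted p-value 0.00558). Its MF values lay below the filter on low counts, which Avp passed through the HF sections alone, so its call is in part built in. HF replicate 2 alone held the high value, and without that section the log2 fold change of Avp was 1.5. With 100 members, with at least 3 member neighbours and within 1 kind of surroundings Avp gave no value, as its counts did not pass the filter. In the other spots Avp reached 493 CPM in HF replicate 2 against 2.57 to 11.4 CPM elsewhere, and Pmch had 697 and 517 CPM in MF and 332 and 0.705 CPM in HF. The number of members with hypothalamus surroundings (64 and 49 in MF, 39 and 31 in HF) moved with Pmch and Hcrt. Within those members Pmch had 1401 and 227 against 66.9 and 2.05 CPM, and within members of striatum surroundings 215 and 125 against 43.9 and 0.695 CPM.

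**Figure D5:**
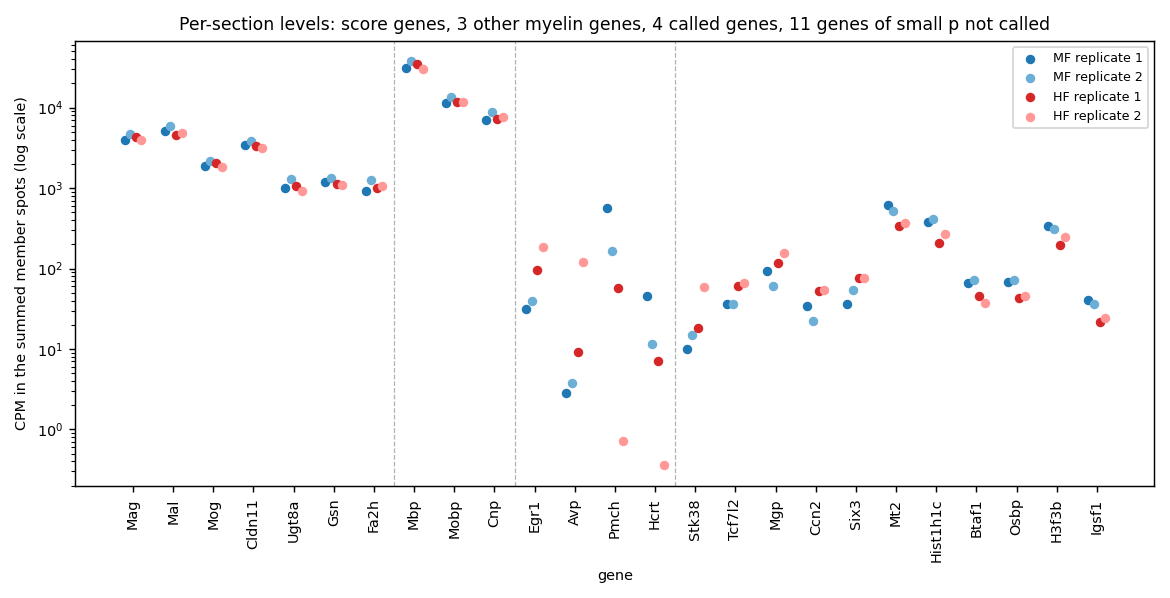
CPM in the summed member spots (y axis, log scale) of each section for, from left to right, the 7 score genes, 3 other myelin genes, the 4 called genes and 11 genes with the smallest p-values that were not called (blue, MF sections; red, HF sections). The myelin genes of the 4 sections lie close together, while Avp, Pmch and Hcrt spread over more than the other genes, with HF replicate 2 at the extreme.

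Among the genes that were not called, those with the smallest p-values above 0 were Stk38, Tcf7l2, Mgp, Ccn2 and Six3, and those below 0 were Mt2, Hist1h1c, Btaf1, Osbp, H3f3b and Igsf1. Stk38, a kinase, had 9.92 and 15 CPM in the MF and 18.2 and 59.4 CPM in the HF members (log2 fold change 1.84 ± 0.34, adjusted p-value 0.0569), again with HF replicate 2 highest, and without that section it had 0.60. Tcf7l2, a Wnt effector of thalamic neurons that newly formed oligodendrocytes also express, had 36.3 and 36.6 against 60.0 and 65.4 CPM (0.77 ± 0.16). Mgp, the matrix Gla protein of vessel walls, had 92.9 and 60.2 against 119 and 157 CPM (0.81 ± 0.17). The forebrain transcription factor Six3 had 0.77 ± 0.17 (0.29 within members with striatum surroundings), and Ccn2 of layer 6b had 0.84 ± 0.19. Mt2, a metal-binding metallothionein, had 619 and 525 against 341 and 365 CPM (-0.72 ± 0.14, adjusted p-value 0.0844, and 0.0051 in DESeq2). Hist1h1c, a linker histone, had 379 and 409 against 208 and 270 CPM (-0.73 ± 0.15), and H3f3b, of histone H3.3, had 335 and 308 against 196 and 244 CPM (-0.57 ± 0.14). Btaf1, Osbp and Igsf1 had -0.77 ± 0.16, -0.69 ± 0.15 and -0.76 ± 0.19. Outside the members Mt2 had 545 and 495 CPM in MF and 354 and 285 CPM in HF, a similar difference.

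Immediate early genes other than Egr1 were mostly above 0 without being called. Of the 15 tested, 13 had a log2 fold change above 0 (median 0.40) and Egr1 alone was called. In 10 of them both HF sections lay above both MF sections, beside the 21.4% over all genes tested. Their median was 0.39 within members with striatum surroundings and 0.21 within those with hypothalamus surroundings. Fos had 4.68 and 3.32 against 7.68 and 6.76 CPM (0.72 ± 0.40). Fosb, Jun and Junb had -0.07, 0.08 and 0.65. Of 15 clock genes 11 were above 0 (median 0.12), with Per1, Per2, Per3 and Dbp at 0.27, 0.38, 0.05 and 0.01. All 3 metallothioneins were below 0 (median -0.39), with Mt1 at -0.39 ± 0.14 and Mt3 at -0.02 ± 0.14.

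Genes of folate transport and one-carbon metabolism had low to moderate counts in the members and none was called. Of 25 tested, 8 had a log2 fold change above 0 and 17 below (median -0.12). Both HF sections lay below both MF sections in 6 and above in 2, beside 15% and 21.4% over all genes tested. Slc19a1, the reduced folate carrier, had 25.5 and 32.4 CPM in MF and 30.0 and 21.0 CPM in HF, with overlapping diets. Slc46a1, the proton-coupled folate transporter, had 4.49 and 3.74 against 6.28 and 7.47 CPM (0.71 ± 0.40), the largest increase of the list. The largest decrease, picked after its values were seen, was that of Shmt1, a serine hydroxymethyltransferase, with 7.49 and 8.72 against 0.698 and 5.33 CPM (-1.12 ± 0.47). Its lowest value is near the floor and comes from HF replicate 1, the section with the fewest member UMIs (1432347).

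Markers of other cell types and of neighbouring areas were compared in the same fit and, Egr1 aside, none of the listed genes was called. Astrocyte markers were below 0 in 11 of 16 (median -0.14): Gfap had -0.49 ± 0.16 and Aqp4 -0.51 ± 0.17 with both HF sections below both MF sections, while Vim had 0.30 ± 0.16 and Aldh1l1 0.24 ± 0.16. Microglia markers were below 0 in 8 of 16 (median -0.01), with Cx3cr1, P2ry12, Tmem119 and Csf1r between -0.16 and 0.22. Vessel markers had a median of 0.04 (7 of 11 above 0, with Cldn5 at 0.16 and Pdgfrb at -0.53), node and paranode genes -0.03 (5 of 11) and axon cytoskeleton genes 0.08 (8 of 12, with Nefl at 0.20 and Nefm at 0.26). Genes of neuron somata and synapses were above 0 in 15 of 18 (median 0.13), with Slc17a7, Slc17a6, Gad1 and Gad2 at 0.01, -0.03, 0.01 and 0.31. Landmark lists of the areas along the tract differed in sign: the median was 0.43 for striatum (6 of 7 above 0), 0.32 for cortex (7 of 8), 0.43 for layer 6b (3 of 3), 0.03 for hippocampus (5 of 7), -0.18 for thalamus (3 of 8) and -0.49 for hypothalamus (1 of 8). Ependyma markers had a median of 0.57 (7 of 7), choroid plexus markers 0.24 (6 of 7) and meninges markers -0.22 (1 of 4). With 1 section left out the median ranged from 0.06 to 1.06 for ependyma, from -0.08 to 0.82 for choroid plexus, from -0.37 to 0.14 for meninges and from -0.24 to 0.03 for thalamus. The medians of the cholesterol, transcription factor, precursor, astrocyte, microglia, axon cytoskeleton, node, thalamus, ependyma, choroid plexus and meninges lists changed sign in at least 1 of 16 alternatives and have no settled direction. The striatum and hypothalamus medians had the same direction as the counts of members by surroundings. In these counts striatum was more and hypothalamus less frequent in the HF sections. The counts were made with the same landmark lists in the spots around the members, so medians and counts are not independent. The part of these counts in the single genes above was not tested.

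The diet effect in the members was then compared with that in the other spots of the same sections, with section as a block. Of 14550 genes tested, edgeR called 0 (0%), with 526 at an unadjusted p-value under 0.05. The smallest p-values above 0 belonged to Mgp, Acta2 and Eln, of vessel walls, with differences of 0.63 ± 0.13 (adjusted p-value 0.153), 1.07 ± 0.26 and 0.63 ± 0.17 on the log2 scale. Without HF replicate 2 those of Mgp and Acta2 were 0.33 and 0.45, and with 100 members that of Eln was -0.12. Mgp had 58.7 and 44.1 CPM in the other spots of MF and 62.7 and 57.9 CPM in those of HF, nearer to each other than in the members. Acta2, smooth muscle actin, had 14.0 and 9.97 against 16.1 and 24.2 CPM in the members and 22.3 and 15.9 against 18.7 and 14.3 CPM outside. The smallest p-values below 0 belonged to Bst2, an interferon-induced membrane protein (-1.57 ± 0.29, adjusted p-value 0.0967), Avp (-2.13 ± 0.43) and Pmch (-1.66 ± 0.34). Single sections decided their size: Bst2 had -0.51 without MF replicate 1, Avp -0.50 without HF replicate 2 and Pmch 0.86 without HF replicate 1. Bst2 had 67.4 CPM in the members of MF replicate 1 and 8.38 to 22.0 CPM in those of the other sections. Of the 22 other myelin proteins 19 had differences above 0 (median 0.07), and none was called. Over all 14550 genes tested 7292 were above 0 (median 0.0007). The 22 follow the score that set the same number of members in every section, so their differences are values only. The 7 score genes had a median of 0.12, given as a value only since they chose the members. Mbp had 0.12 ± 0.10. A lack of calls does not show that the diet acted alike in the tracts and outside them.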

How the data were processed

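Processed Visium-FFPE files of 4 sections were used. Space Ranger v2.0.0 was run by the authors against mm10 (GRCm38). They deposited unnormalized UMI counts of 19465 features per spot, spot positions and, for each feature, Moran's I as a score. Gene positions are from GENCODE vM21, matched by Ensembl identifier. The study tested single spots with a Wilcoxon test, which was not used here since spots of 1 section are not replicates.

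Spots under 500 UMIs or 250 genes were removed (2 to 7 per section), as in the study. The members and gene lists were chosen with earlier results of these data known. Section totals ranged from 34982061 to 90096877 UMIs, MF replicate 1 being the deepest. Counts of members and of other spots were summed per section and, after filterByExpr and TMM, compared in edgeR 4.0.16 under R 4.3.3 (glmQLFit and glmQLFTest), for HF against MF without a block and for location by diet with section as a block. The tests were tried on simulated data. Named genes were all called genes, the 6 next smallest p-values in each direction (3 for location by diet), the 15 highest and 8 lowest ratios of members to other spots, the score genes and the first 4 of each list, except that lists of landmarks and of brain surfaces are given by their medians. Exceptions are named as such, and some genes that the rule takes are not reported here. Depth limits genes under about 20 CPM.

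Alternatives were library size alone, no filter on low counts, DESeq2 1.42.0, the replicate number as a block, each section left out, 100 or 300 members, spots thinned to 5000 UMIs, 7 other score genes, Mbp, Mobp and Cnp among them, 1 score threshold for all sections, members of 1 kind of surroundings, members with at least 3 member neighbours, and other spots at least 3 steps away.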

Additional observations from a re-analysis of the deposited data

How the results depend on the processing

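Counts of called genes depended on the setting. For HF against MF, where 2 genes were called higher and 2 lower, there were 14 and 15 with no filter on low counts, 5 and 5 with members chosen by 7 other myelin genes, and 0 and 1 with DESeq2 (169 genes at an unadjusted p-value under 0.05). Higher calls numbered 1 among members with at least 3 member neighbours and 0 among members with hypothalamus surroundings. Lower calls numbered 1 with library size alone, 4 with 100 members, 0 with 300 members, 1 in thinned spots and 5 among members with striatum surroundings. With 1 section left out, higher calls ranged from 5 to 37 and lower calls from 3 to 37. For location by diet, where none was called, there were 7 with no filter, 2 with 100 members, 1 in thinned spots, 4 with the other score genes, 3 against other spots at least 3 steps away, and 0 to 19 with 1 section left out. The causes were not tested.

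Blocking on the replicate number gave 11 higher and 10 lower calls for HF against MF, and 4 for location by diet. The deviations of equal-numbered sections correlated with r = -0.03 over genes. With so few sections per diet this correlation cannot show whether equal-numbered sections belong together. Whether the block is the better setting is thus not known, and its calls are given as counts only.

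The median log2 fold change of the 22 other myelin proteins was below 0 in all 16 alternatives. It ranged from -0.28 to -0.058 with 1 section left out and was -0.039 among members with hypothalamus surroundings. These are values only, since the 22 follow the score. Their median ratio of members to other spots was 1.88 with 300 members, and it ranged from 1.94 to 2.01 with 1 section left out. The location by diet difference turned to 0.86 for Pmch without HF replicate 1 (from -2.21 to 0.86 with 1 section left out) and to -0.12 for Eln with 100 members. In HF replicate 1, 155 of the 200 members had the 5000 UMIs needed for thinning.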
